A study of Arabidopsis thaliana with 6 samples.

Results

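The core hypoxia-induced genes are a list of 44 Arabidopsis loci whose transcripts are known to accumulate under low oxygen across cell types. The factors of group VII of the ERF family and the oxygen-sensor genes are not part of the list. A probe set, the group of array features that measures a transcript, was assigned to 24 of the 44 loci by the array's annotation. A further 4 loci had a probe set named only in the S1 Table of the paper, and the remaining 16 had none named in the sources used here and were not analysed. The table as a whole holds 22746 probe sets, of which those with a single gene cover 13286 genes.

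Plants without oxygen cannot respire, and sucrose breakdown, glycolysis and ethanol fermentation then supply ATP and regenerate NAD+. In Arabidopsis the switch is driven by ERF factors of group VII, which are degraded when oxygen is present. The core genes encode enzymes of this route, a hemoglobin, regulators that act back on the response, calcium and lipid-binding proteins, and many small proteins of little known function.

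The 6 arrays came from rosettes, labelled leaves, of wild-type Columbia plants that were 4 weeks old and grown in long days. The 3 control arrays were from untreated plants in normoxia at 0 h, and the 3 submerged arrays from plants kept for 48 h beneath the water surface in the light. Per the paper's methods the replicates are biological, each pooled from 3 plants. The controls were taken before the treatment, so submergence, the age difference of 48 h and the light reaching the leaves cannot be told apart. The labels call the submerged condition hypoxia.

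Signals are on the log2 scale, as the authors deposited them. Arrays of the same condition correlated at 0.909 to 0.924, and arrays of different conditions at 0.732 to 0.806. The 40th percentile of each array, 6.17 to 6.39 for controls and 5.55 to 5.84 for submerged plants, served as the background level. The median log2 fold change of all probe sets was -0.26 as deposited and 0.02 after quantile normalization. Of the tissue markers, RCA, the Rubisco activase gene of leaves, was at 14.90 to 15.29 in controls and 13.66 to 14.30 after submergence (log2 fold change -1.11, limma adjusted p = 0.00457). Its part in the results was not tested. It was the only leaf marker of 8 with a named probe set, and of 9 root markers PYK10 and EXPA7 had one. EXPA7 was above background on 0 arrays, PYK10 on 1 control array. None of the 4 flower markers had a named probe set.

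Among the 24 annotated members, 13 rose after 48-h light submergence, 1 fell, 3 held and 7 stayed dim. A gene rose or fell when limma gave an adjusted p under 0.05 and the difference was at least 1.5-fold. It held when it did not pass and lay above background on 2 or more of the 6 arrays, and it was dim when it did not pass and lay above background on 0 or 1 array. Of all probe sets, 18.3% rose, 24.3% fell, 26.6% held and 30.9% were dim. The members' median log2 fold change was 1.22. The lowest submerged array exceeded the highest control array in 13 of the 24 members, the same 13 that rose, and in 23.1% of all probe sets. These were whole rosettes, so a higher level per cell and a larger share of cells with the transcript cannot be told apart.

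**Figure D1:**
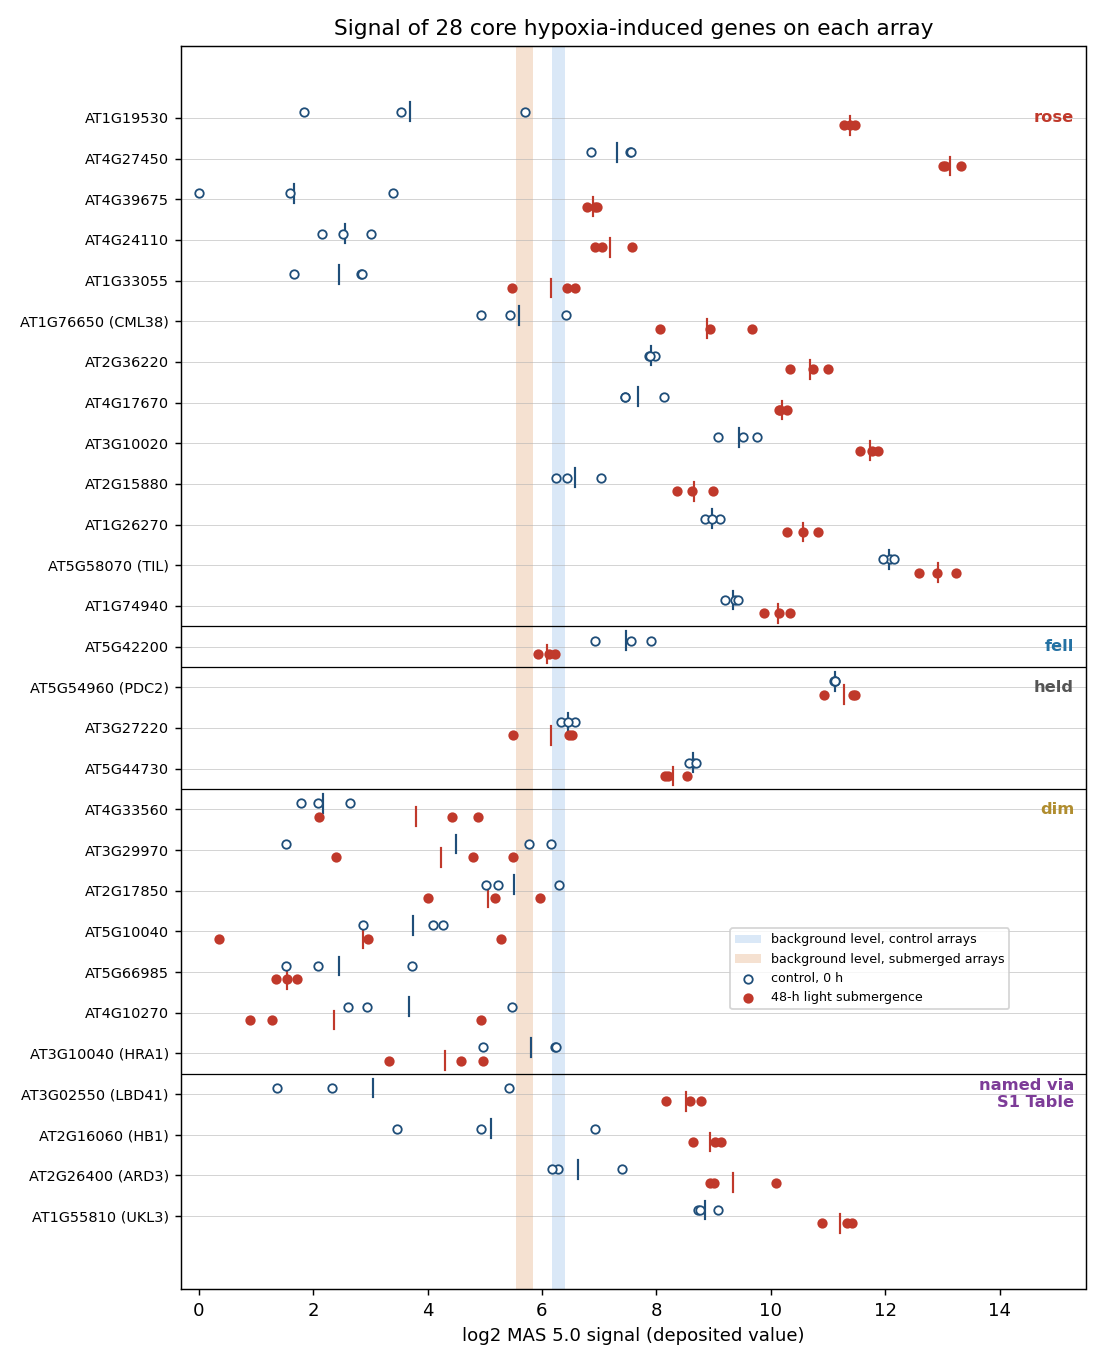
Log2 signal (x axis) of 28 core hypoxia-induced genes (rows) on each array, with open circles for the 3 control arrays, filled circles for the 3 submerged arrays and short lines for the means. Shaded bands span the background levels (6.17 to 6.39 on control and 5.55 to 5.84 on submerged arrays), and the 13 members that rose have their submerged arrays to the right of all control arrays.

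The outcomes differed with how bright a member was before submergence, which follows in part from the definition of dim. Of 11 members above background on all 3 control arrays, 8 rose, 1 fell and 2 held. Of 11 members above background on no control array, 4 rose and 7 stayed dim. Of all 12674 probe sets above background on all 3 control arrays, 23.8% rose, 38.7% fell and 4747 held. Of all 8054 above background on no control array, 9.54% rose and 6656 were dim. The standard error of the log2 fold change was 0.16 to 0.36 for the 11 members above background on all 6 arrays and 0.72 to 1.31 for the 6 that were above it on none. The intervals of all 6 held a change of 2-fold in at least 1 direction.

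Fermentation is carried by pyruvate decarboxylase, which makes acetaldehyde, and alcohol dehydrogenase, which reduces it to ethanol. Of the 6 listed genes of fermentation and sugar entry, PDC2 (AT5G54960, probe set 248138_at) was the only one with a named probe set. PDC1 (AT4G33070), ADH1 (AT1G77120), the sucrose synthase genes SUS1 (AT5G20830) and SUS4 (AT3G43190), and PFK6 (AT4G32840), for a phosphofructokinase, were not analysed here. PDC2 read 11.11, 11.12 and 11.12 in controls and 11.47, 10.93 and 11.44 after submergence. Submerged replicate 2 lay below all controls and replicates 1 and 3 above them. The log2 fold change was 0.17 (standard error 0.17, limma adjusted p = 0.473), and its 95% interval of -0.21 to 0.54 lies within 1.5-fold in either direction. PDC2 was thus abundant on every array.

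Hemoglobin 1 binds oxygen tightly and removes nitric oxide. HB1 (AT2G16060, probe set 263096_at) was named only through S1 Table, in which it stands as a gene chosen for its increase on these arrays, so its values are a description and were not tested. The control arrays read 4.93, 3.46 and 6.93 and the submerged arrays 9.13, 8.65 and 9.03. All submerged arrays were higher, and only control replicate 3 was above background. The log2 fold change was 3.83, and it was 3.01 without control replicate 2 and 4.74 without control replicate 3. With the control signals below background raised to it, HB1 was 5.20-fold higher. RBOHD (AT5G47910), an NADPH oxidase gene, was not analysed here.

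Of the transcription regulators, HRA1 and LBD41 had a probe set. HRA1 (AT3G10040, probe set 258930_at) is a trihelix protein that restrains an ERF factor of group VII. It read 6.23, 6.25 and 4.97 in controls and 4.58, 4.98 and 3.33 after submergence. No array lay above background, and submerged replicate 2 at 4.98 was just above control replicate 3 at 4.97. The log2 fold change of -1.52 did not pass (standard error 0.72, limma adjusted p = 0.116). LBD41 (AT3G02550, probe set 258487_at), a LOB-domain protein, was named through S1 Table, chosen there for its increase on these arrays, and not tested. Its signals were 2.34, 1.37 and 5.42 in the controls, all below background, and 8.18, 8.79 and 8.58 after submergence. Against the background level of the control arrays it was at least 4.62-fold higher. Such bounds set the mean of the bright arrays against, on each dim array, the higher of its background level and the probe set's own signal. JAZ3 (AT3G17860), a jasmonate repressor gene, was not analysed here.

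Among enzymes of hormone and metabolite pathways, the annotated member was AT1G26270 (probe set 245821_at), listed in S1 Table as a putative phosphatidylinositol 4-kinase. It rose 2.99-fold, from 8.84, 9.11 and 8.97 to 10.56, 10.28 and 10.83 (log2 fold change 1.58, standard error 0.17, limma adjusted p = 3.34e-05). Both groups were tight, and 1.17 log2 units separated the lowest submerged from the highest control array. ARD3 (AT2G26400, probe set 245035_at), an acireductone dioxygenase of methionine salvage, and UKL3 (AT1G55810, probe set 264561_at), a gene named for its likeness to uridine kinase, were both named through S1 Table. ARD3 read 7.40, 6.29 and 6.18 in the controls and 8.94, 10.08 and 9.01 after submergence, a log2 fold change of 2.72. UKL3 read 9.07, 8.73 and 8.76, and then 10.90, 11.42 and 11.34, a log2 fold change of 2.36. All submerged arrays were higher than all controls for either gene, as in 23.1% of all probe sets. S1 Table chose both genes for their increase on these arrays, so this is a description and neither was tested. Not analysed here were ACO1 (AT2G19590), for the last step of ethylene synthesis, AT1G43800 (FTM1 in RefSeq), for an acyl-ACP desaturase, and CYP707A3 (AT5G45340), for abscisic acid breakdown.

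Calcium and membrane genes were represented by CML38 and TIL. Both rose, where 18.3% of all probe sets did. CML38 (AT1G76650, probe set 259879_at), a calmodulin-like protein of RNA granules formed under hypoxia, went from 6.43, 5.45 and 4.93 to 8.06, 9.66 and 8.93. Only control replicate 1 was above background, and the submerged arrays spread over 1.60 log2 units. The log2 fold change was 3.28 (standard error 0.48, limma adjusted p = 0.000252). With control signals below background raised to it, CML38 was 5.93-fold higher, against 9.73-fold from the signals as deposited. TIL (AT5G58070, probe set 247851_at), a lipocalin that protects membranes in heat and cold, was already bright, at 12.08, 12.15 and 11.95, and reached 12.91, 13.24 and 12.59. It rose 1.81-fold (95% interval 1.35 to 2.41, limma adjusted p = 0.00371). NIP2;1 (AT2G34390), a lactic acid channel gene, was not analysed here.

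Of 18 annotated members of little known function, 9 rose, against 18.3% of all probe sets. Of the 18, 10 were above background on no control array and 4 of these rose, in a stratum of which 9.54% rose among all probe sets. Another 7 were above background on all 3 control arrays, and of these AT4G27450, AT2G36220, AT4G17670, AT3G10020 and AT1G74940 rose. In that stratum 23.8% of all probe sets rose. AT4G27450 (probe set 253874_at), an aluminium-induced protein with YGL and LRDR motifs, read 7.54, 6.86 and 7.55 in the controls and 13.05, 13.32 and 13.01 after submergence. It rose 56.2-fold (95% interval 41.2 to 76.8, limma adjusted p = 3.39e-08), and only 0.866% of all probe sets had a higher log2 fold change. AT1G19530 (probe set 260668_at), annotated in S1 Table as a hypothetical protein, rose with a log2 difference of 7.69 (standard error 0.75, limma adjusted p = 1.57e-05). Its controls, at 5.71, 1.84 and 3.53, were all below background and differed widely, while the submerged arrays agreed at 11.39, 11.28 and 11.47. Because the control level is not resolved, the change is given as at least 33.7-fold, and its order relative to the 56.2-fold of AT4G27450 is not known.

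A trio of genes rose from below background to a level near it. AT4G39675 (probe set 252882_at) read 1.59, 3.40 and 0.00 in the controls and 6.79, 6.92 and 6.97 after submergence, at least 1.5-fold higher (limma adjusted p = 0.00106). AT4G24110 (probe set 254200_at) went from 3.02, 2.53 and 2.15 to 6.94, 7.05 and 7.58, at least 1.84-fold higher (limma adjusted p = 0.000196). Both were thus detected after submergence on all 3 arrays, by a margin of 0.95 to 1.75 log2 units over the background of the submerged arrays. AT1G33055 (probe set 261567_at) read 2.85, 2.85 and 1.67, and then 5.48, 6.58 and 6.44. It passed the test (limma adjusted p = 0.00271), but submerged replicate 1 stayed below background and the mean did not exceed the background of the control arrays, so no fold is given.

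AT2G36220, AT4G17670 and AT3G10020 rose from levels that were measured on all arrays. AT2G36220 (probe set 263931_at), a hypothetical protein in S1 Table, went from 7.97, 7.87 and 7.90 to 10.99, 10.73 and 10.34, which is 6.86-fold higher (standard error of the log2 fold change 0.18, limma adjusted p = 1.42e-06). AT4G17670 (probe set 245401_at), of the FCS-like zinc finger family, went from 8.13, 7.46 and 7.45 to 10.28, 10.15 and 10.16 and rose 5.73-fold (limma adjusted p = 5.27e-06). AT3G10020 (probe set 258939_at) was among the brightest members before treatment, at 9.52, 9.08 and 9.76, and rose 4.88-fold to 11.88, 11.57 and 11.78 (limma adjusted p = 4.99e-06). In none of the 3 genes did the groups come closer than 1.81 log2 units. In the TAIR10.1 gene order AT3G10020 lies near HRA1 with 1 protein-coding gene between them, so a member that rose and a dim member are near neighbours.

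AT2G15880 and AT1G74940 rose as well. AT2G15880 (probe set 265536_at), annotated in S1 Table as a leucine-rich repeat extensin-like protein of pollen, read 7.04, 6.43 and 6.24 in the controls, close above background, and 8.62, 8.36 and 8.99 after submergence. It rose 4.24-fold (standard error of the log2 fold change 0.29, limma adjusted p = 0.000193). AT1G74940 (probe set 262170_at), a second member of the FCS-like zinc finger family, changed least among those that rose, 1.72-fold, from 9.21, 9.38 and 9.43 to 10.34, 9.87 and 10.15 (95% interval 1.34 to 2.21, limma adjusted p = 0.00259). Its groups were 0.44 log2 units apart.

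**Figure D2:**
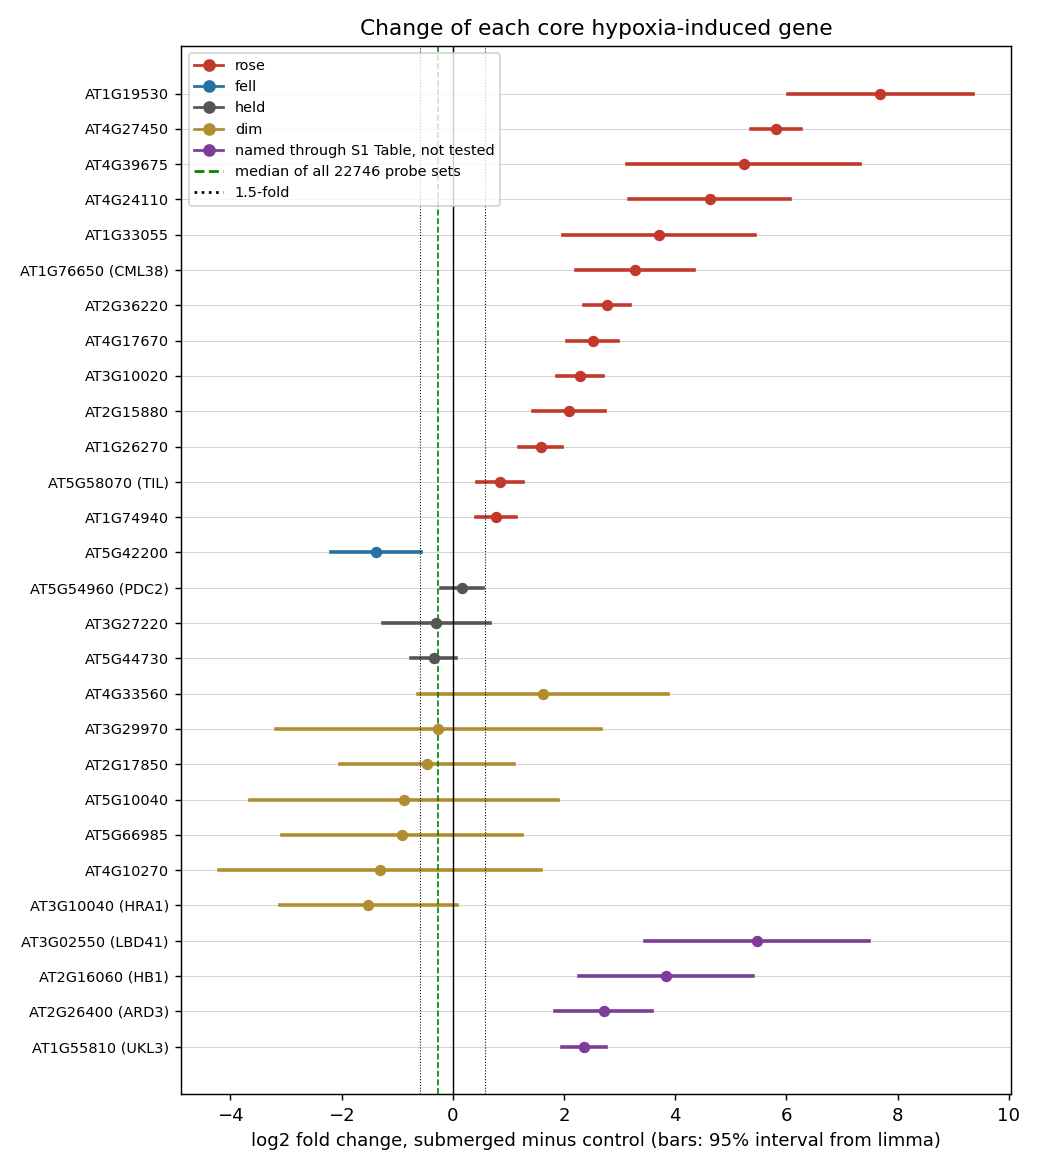
Log2 fold change, submerged minus control (x axis), of 28 core hypoxia-induced genes (rows), with the 95% interval from limma as bars and colours for rose, fell, held, dim and, not tested, named through S1 Table. The dashed line marks the median of all probe sets (-0.26) and the dotted lines 1.5-fold, and the interval lies above 0 for the 13 genes that rose and includes 0 for the 3 that held and the 7 that were dim.

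AT5G42200 (probe set 249234_at), for a RING-type ubiquitin ligase, was the only member that fell. It read 7.91, 6.93 and 7.56 in the controls and 6.23, 6.13 and 5.93 after submergence, with a gap of 0.71 log2 units between the groups, and the submerged arrays stood only 0.10 to 0.57 above their background. The log2 fold change was -1.38 (standard error 0.36, limma adjusted p = 0.0101). The call was lost after quantile normalization, at -0.91 with a limma adjusted p = 0.0752, and without control replicate 1, at -1.15 with a limma adjusted p = 0.0535.

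Besides PDC2, the members that held were AT5G44730 and AT3G27220. AT5G44730 (probe set 249015_at), a hydrolase of the HAD family, read 8.65, 8.57 and 8.70 in the controls and 8.15, 8.53 and 8.21 after submergence. The submerged arrays lay slightly lower without overlap, yet the log2 fold change of -0.34 did not pass (95% interval -0.75 to 0.07, limma adjusted p = 0.163), and a change of 2-fold in either direction lies outside the interval. AT3G27220 (probe set 257153_at), a kelch repeat protein, read 6.58, 6.32 and 6.46, and then 5.49, 6.52 and 6.47. It was above background on 2 of 3 arrays of each condition and by a narrow margin on the controls, so its level was barely measured. Its log2 fold change was -0.30 (95% interval -1.26 to 0.67, limma adjusted p = 0.633), and 0.20 after quantile normalization.

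The 7 dim members were HRA1, AT5G10040, AT4G33560, AT3G29970, AT2G17850, AT4G10270 and AT5G66985. AT5G10040 (probe set 250464_at), called HUP09 in the paper, read 2.87, 4.10 and 4.27 in the controls and 5.28, 2.96 and 0.36 after submergence. None of the 6 signals was above background, so the response of the gene was not measured here in either direction. The submerged arrays spread across the whole range of the controls and beyond it on both sides, and the log2 fold change was -0.88 with a 95% interval of -3.65 to 1.89 (limma adjusted p = 0.62). For AT4G33560 (probe set 253298_at), of the wound-responsive family, submerged replicates 1 and 3 at 4.89 and 4.43 lay above the controls at 2.65, 2.09 and 1.79, while submerged replicate 2 at 2.102 lay among them. All of these signals were below background, and the log2 fold change was 1.63 (95% interval -0.62 to 3.88, limma adjusted p = 0.231).

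Another gene of the wound-responsive family, AT4G10270 (probe set 255807_at), read 5.48, 2.94 and 2.61, and then 0.89, 1.29 and 4.93. Its tandem neighbour AT4G10265, with 0 genes between them, was not analysed here. AT3G29970 (probe set 245226_at), a B12D-type protein, read 6.17, 5.78 and 1.53 in the controls and 5.50, 4.79 and 2.40 after submergence. AT5G66985 (probe set 247024_at) stayed at 1.35 to 3.73 on all 6 arrays. AT2G17850 (probe set 264846_at), a rhodanese-like protein, read 6.30, 5.23 and 5.02, and then 5.97, 5.18 and 4.01, above background on submerged replicate 1 alone. The groups overlapped for each of these 4 genes, and none passed, with log2 fold changes of -1.31, -0.26, -0.91 and -0.46 in the same order. After quantile normalization those of AT3G29970 and AT2G17850 were 0.18 and 0.04. Over the 7 dim members adjusted p from limma ran from 0.116 to 0.898, 0 members had an unadjusted p under 0.05, and the intervals reached from -4.20 to 3.88. With background at the 30th percentile, HRA1, AT3G29970 and AT2G17850 would count as held, on 3, 4 and 3 arrays.

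**Figure D3:**
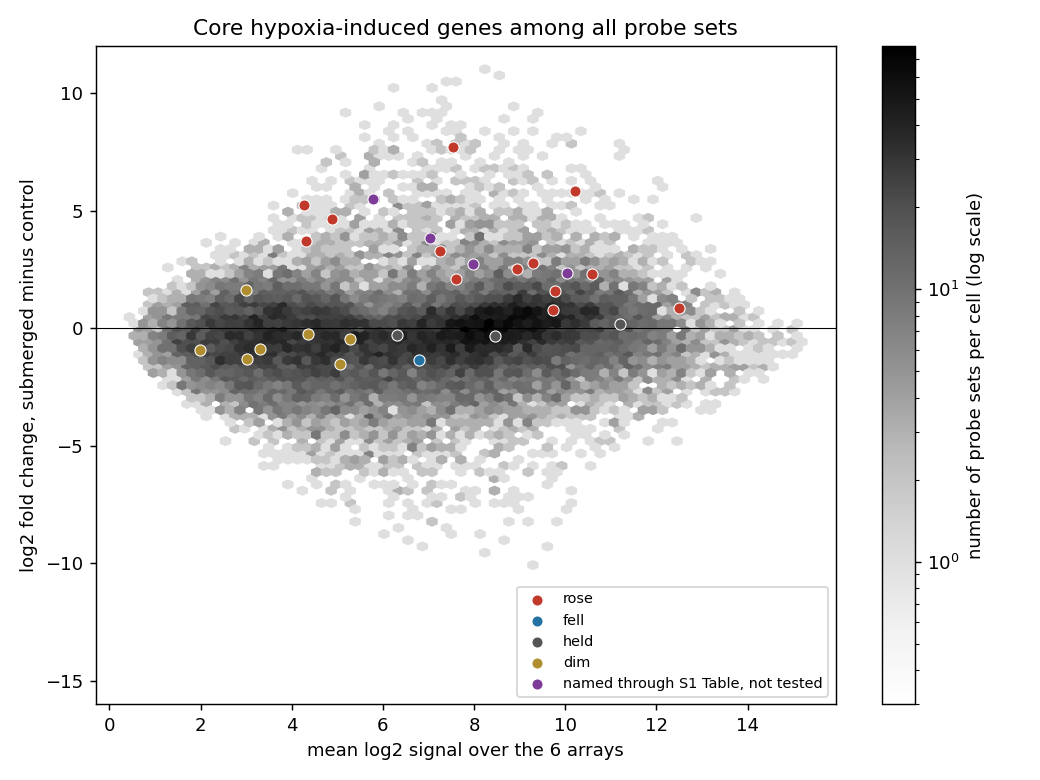
Log2 fold change, submerged minus control (y axis), against the mean log2 signal over the 6 arrays (x axis), with all 22746 probe sets as grey cells shaded by their number on a log scale and the 28 members as coloured points. The log2 fold changes of the 13 genes that rose run from 0.78 to 7.69, and the 7 dim genes lie to the left of the 3 that held.

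Members that remain to be accounted for, and were not analysed here, are the phloem lectin-type genes PP2-A13 (AT3G61060) and PP2-A11 (AT1G63090), the phosphate-induced gene PHI-1 (AT1G35140), and AT5G65207. They complete the 16 listed genes without a named probe set.

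Of 29 other genes listed with glycolysis and fermentation from general knowledge, 7 had a named probe set. All 7 were above background on all 6 arrays. Of these, 1 rose, 5 fell and 1 held, where 24.3% of all probe sets, and 38.7% of those above background on all 3 control arrays, fell. Their median log2 fold change was -0.80, against -0.26 over all probe sets. PPDK (AT4G15530), pyruvate orthophosphate dikinase, rose 44.5-fold, from 8.30, 8.05 and 8.11 to 13.51, 13.74 and 13.63 (standard error of the log2 fold change 0.14, limma adjusted p = 1.14e-08). Its control and submerged arrays stood further apart than those of the other 6 genes with a named probe set.

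The genes that fell encode subunits of the pyrophosphate-dependent phosphofructokinase, glycolytic enzymes and a lactate dehydrogenase. PFP-ALPHA1 (AT1G20950), a subunit of the pyrophosphate-dependent phosphofructokinase, went from 11.23, 11.11 and 10.87 to 8.11, 7.34 and 8.58, a log2 fold change of -3.06 (standard error 0.27, limma adjusted p = 8.96e-06). PFP-ALPHA2 (AT1G76550), for the other such subunit, held at 0.41 (limma adjusted p = 0.0776), and PFP-BETA1 (AT1G12000), for the catalytic subunit, fell by 0.80 on the log2 scale (limma adjusted p = 0.00753). The triose phosphate isomerase gene CTIMC (AT3G55440) had a log2 fold change of -1.25 (limma adjusted p = 0.000138). The lactate dehydrogenase gene LDH1 (AT4G17260) had one of -0.97 (limma adjusted p = 0.00215). GAPC2 (AT1G13440), a glyceraldehyde-3-phosphate dehydrogenase gene, had one of -0.61 (limma adjusted p = 0.0209), a call lost after quantile normalization and without control replicate 2 or 3 or submerged replicate 1 or 2, when it was -0.37 after quantile normalization and -0.63 to -0.50 without those arrays. PDC2 thus held while LDH1 fell, although the difference between the 2 changes was not tested.

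Of 40 relatives of the members, genes of the same families, 8 had a named probe set. Of these, 1 rose, 2 fell, 4 held and 1 was dim. These shares, 12.5% that rose and 25% that fell, are near the 18.3% and 24.3% of all probe sets. The median log2 fold change was -0.06. CML37 (AT5G42380), a close relative of CML38, read 1.79, 1.72 and 3.75 in the controls, all below background, and 7.07, 8.06 and 6.82 after submergence. It was at least 2.02-fold higher (limma adjusted p = 0.000485). CML39 (AT1G76640), which lies next to CML38 with 0 genes between them, stayed at 0.27 to 3.03 on all arrays and was dim. Of CML38 and these 2 relatives, 2 rose and 1 was not measured above background, which gives no result for the family.

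The other relatives with a named probe set belong to the families of ACO1, FTM1, RBOHD and ARD3. ACO3 (AT1G12010), an ethylene synthesis gene related to ACO1, fell from 7.20, 7.04 and 6.44 to 1.78, 4.21 and 3.61, below background (limma adjusted p = 0.0025). Against the background of the submerged arrays the drop was at least 2.22-fold in the signals as deposited. That background, 5.55 to 5.84, is lower than the 6.17 to 6.39 of the controls, and the bound was not computed under other scalings. The acyl-ACP desaturase gene SAD5 (AT3G02630) had a log2 fold change of -1.10 (limma adjusted p = 0.000709) and fell. SAD1 (AT5G16240) did not pass at -1.13 (limma adjusted p = 0.101), and passed without submerged replicate 3, at -1.65. SAD3 (AT5G16230) counted as held at 0.14 (95% interval -0.72 to 1.01, limma adjusted p = 0.802), and was at 0.62 after quantile normalization. RBOHE (AT1G19230), related to RBOHD, counted as held at 0.93 (95% interval -0.12 to 1.98, limma adjusted p = 0.142). RBOHE read 6.09, 5.14 and 5.63 in the controls and 6.07, 6.69 and 6.89 after submergence, so the groups overlapped. It was above background on all 3 submerged arrays and no control array, but the submerged arrays had the lower background level. RBOHE passed after quantile normalization, at 1.40. ARD4 (AT5G43850), from the family of ARD3, read 10.85, 10.67 and 10.44, and then 10.93, 10.53 and 10.55, with a log2 fold change of 0.02 (95% interval -0.35 to 0.39).

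**Figure D4:**
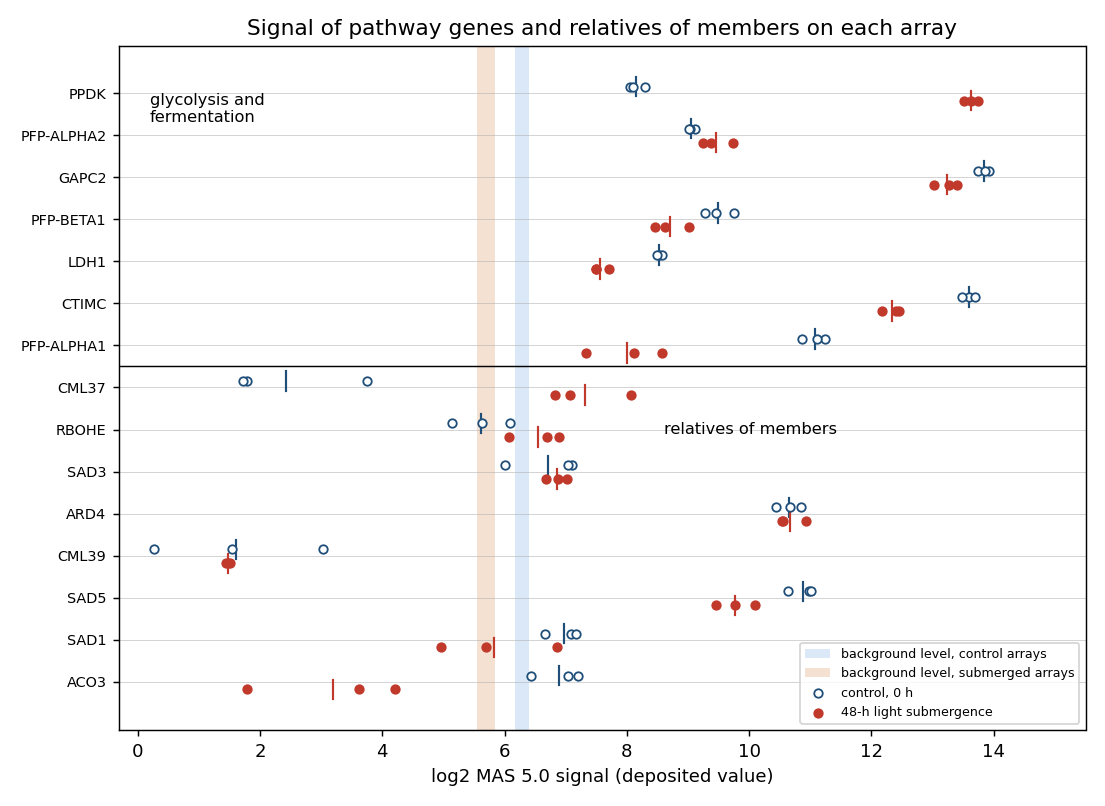
Log2 signal (x axis) on each array of 7 other genes listed with glycolysis and fermentation (upper rows) and 8 relatives of members (lower rows). Open circles are control arrays, filled circles submerged arrays, short lines means and bands background. PPDK and CML37 lie far higher after submergence. In the upper block 5 genes lie lower on all submerged arrays than on any control array, as do 7168 of all 22746 probe sets.

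Scaling and single arrays changed few of the members' calls. All 13 members that rose kept their call under the other scalings and variance models and without any array, wherever they were tested, and the 10 that did not pass passed in none of them. A threshold of 2-fold in place of 1.5-fold left 11, without TIL and AT1G74940. For AT4G27450 the log2 fold change ran from 5.55 to 6.15 over these alternatives, and for AT1G74940 from 0.66 to 0.90. For members dim in the controls the size depended on how low signals were handled: with an offset of 32 added to the signal, the log2 fold change of AT4G39675 was 2.04 in place of 5.23 and that of LBD41 3.12 in place of 5.47.

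**Figure D5:**
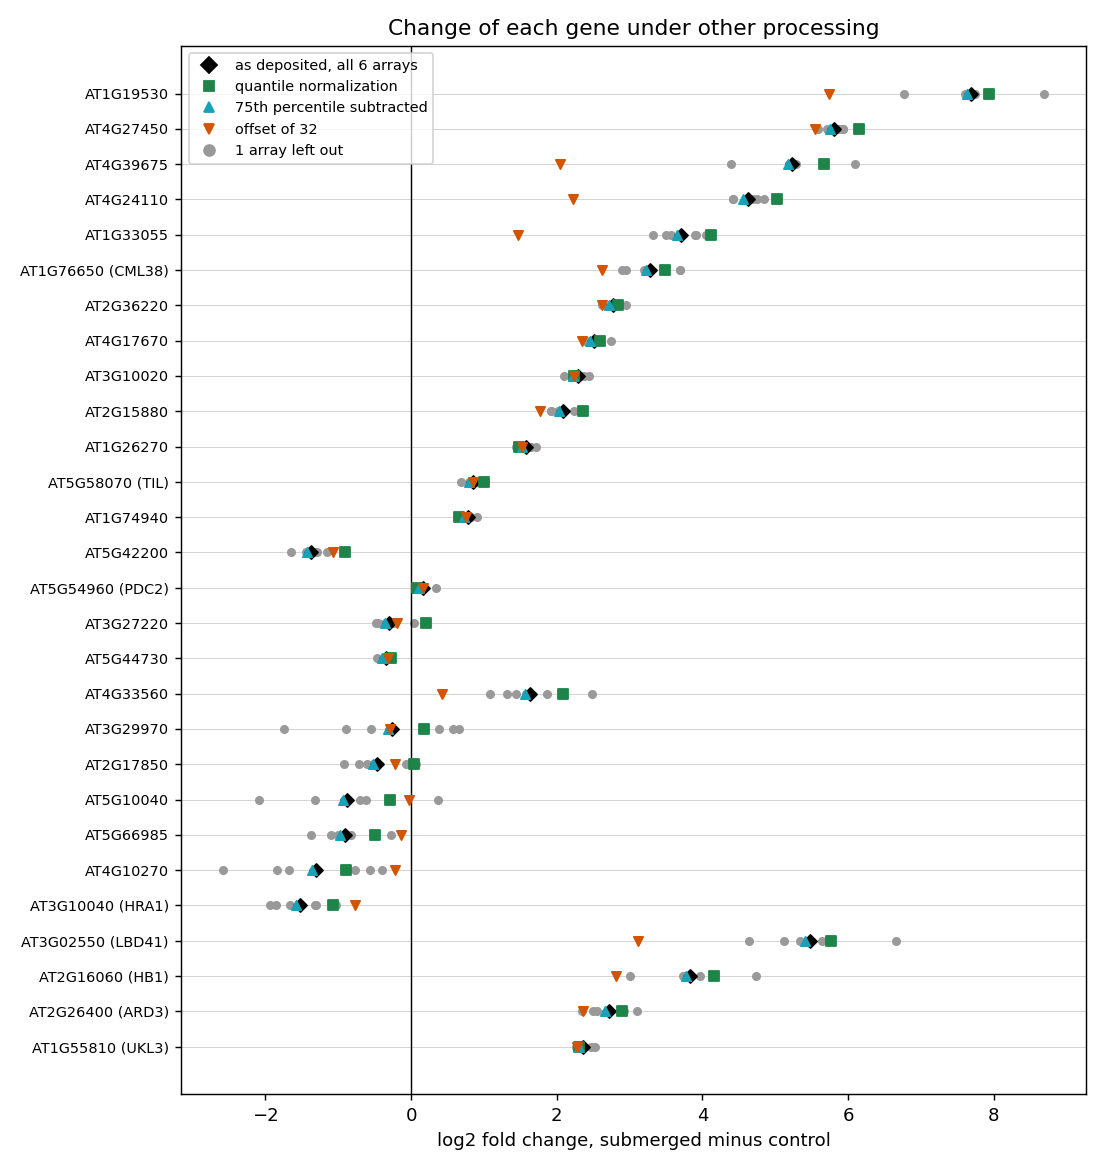
Log2 fold change, submerged minus control (x axis), of 28 core hypoxia-induced genes (rows) as deposited and after quantile normalization, after scaling to the 75th percentile, with an offset of 32 added, and with each array left out in turn. The offset moves the genes that were dim in the controls most, such as AT4G39675 (5.23 to 2.04), while bright genes such as AT4G27450 (5.81 to 5.55) move less.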

How the data were processed

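Rosette RNA of 6 samples was hybridised to Affymetrix ATH1 arrays. The authors collected the data with the Affymetrix software MAS5 and deposited log2 signals without detection calls. Replicates are separate samples, each of 3 plants per the methods. The members and the gene lists were chosen with earlier results of these data known.

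All 22746 probe sets were fitted with limma 3.58.1 (R 4.3.3, eBayes with a trend), two-sided, with Benjamini-Hochberg adjustment over all of them. A change required an adjusted p under 0.05 and 1.5-fold. Intervals are at 95%. The array number limits the precision, and depth does not apply. Of the probe sets, 13513 carried 1 gene in the array annotation, 503 several and 8730 none, and only those with 1 gene were named. S1 Table, held in part, named 4 further members. Every member with a probe set is described. From the other lists, genes past the test and relatives of members are named. TAIR10.1 served only for names and gene order. The fit was tested on simulated data. Figures were drawn with Python 3.11.15 and matplotlib 3.10.9. Other scalings, an offset, a filter on dim probe sets, other thresholds and background levels, a replicate block and leaving out each array were tried as alternatives.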

Additional observations from a re-analysis of the deposited data

How the results depend on the processing

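The count of members that rose was 13 in all alternatives but 2, with 12 under a filter on 3 arrays above background, which left out 8 members, and 11 at 2-fold. The count that fell, 1 as reported, was 0 after quantile normalization, 0 at an adjusted p under 0.01, and 0 to 1 with 1 array left out. The members that held numbered 5 at 2-fold and 6 with background at the 30th percentile, which left 4 dim. At the 50th percentile 2 held and 8 were dim, AT3G27220 among them. Of the glycolysis list, 2 genes fell at 2-fold. Of the relatives, 2 rose after quantile normalization. The causes were not tested. Changed probe sets numbered 9684, and 8788 to 9575 with 1 array left out. With the replicate block 9339 changed and 13 members rose. The labels do not say that the replicate numbers pair samples, so they were not taken to do so. Deviations of same-numbered arrays correlated at -0.01 to 0.06. This cannot decide the question, as it runs over all probe sets, many of them near background. For the count of dim members, all alternatives except the background levels were chosen after seeing the data. Signals near background limit what can be said of dim members.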
